A study of Mus musculus with 12 samples.

Results

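The cholesterol synthesis genes described here are *Srebf2*, *Hmgcs1*, *Sqle*, *Idi1*, *Fdps*, *Cyp51* and *Insig1*, 7 of the 54838 genes in a table of raw read counts from mouse liver. They were chosen by name, as genes of the SREBP2 pathway, with earlier results of these data known, and each symbol matched 1 row. None of the 7 encodes a protein that takes up LDL, so they are called cholesterol synthesis genes here. Livers came from C57BL/6J mice in 4 groups of 3, and the labels and methods give the treatments as follows. For 7 days the drinking water was plain or held 25 mM ZnSO4. The mice were then injected intraperitoneally with PBS or with 200 µg dexamethasone (Dex, given as Rapidexon), a synthetic agonist of the glucocorticoid receptor, and livers were taken 2 h later. The groups are water-PBS (the control), zinc-PBS, water-Dex and zinc-Dex. All mice were wild-type females with free access to food. The comparisons ask how zinc and Dex, alone and together, change gene expression in the liver.

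Cells make cholesterol from acetyl-CoA through the mevalonate pathway, in which a long series of enzymes builds isoprenoid units, joins them to squalene and closes and trims the sterol ring. Most of these enzymes are switched on by SREBP2, the transcription factor encoded by *Srebf2*. SREBP2 is made as a membrane protein of the endoplasmic reticulum and is held there with its escort SCAP by INSIG proteins when sterols are plentiful. When sterols run low, SCAP carries it to the Golgi, proteases release its active part, and that part enters the nucleus and binds sterol regulatory elements in the promoters of its targets. *Srebf2* and *Insig1* are themselves such targets. Since SREBP2 is controlled through its release and entry into the nucleus, RNA levels of the pathway report on its activity only indirectly. The liver is a main site of this synthesis.

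The promoters of the pathway are known for pairing a sterol regulatory element with a CCAAT box, the site of the cofactor NF-Y. RefSeq windows of 250 bases before the annotated start (GRCm38.p6) were matched for 5 of the 7 members, namely *Srebf2*, *Hmgcs1*, *Idi1*, *Cyp51* and *Insig1*. The letters TCACCCCA, the core of a sterol regulatory element, were searched on both strands and stood in the windows of *Srebf2* and *Hmgcs1*, against 1.34% of all 32851 windows. The letters CCAAT stood in 5 of the 5 windows, against 33.8% of all windows. In *Srebf2* the sterol element began 162 bases and the CCAAT box 135 bases before the start. In *Hmgcs1* the sterol element began at 137 bases, with CCAAT boxes at 237, 176 and 45 bases. *Idi1* had CCAAT boxes at 45 and 14 bases, *Cyp51* 1 at 29 bases and *Insig1* 1 at 216 bases. The E-box CACGTG stood only in the *Insig1* window, at 101 bases, against 6.02% of all windows. AGAACA, an arm of the glucocorticoid response element, was found among the 5 windows only in that of *Hmgcs1*, at 165 bases, against 16.1% of all windows. These matches describe the letters and do not show binding. The upstream sequences of *Srebf2* and *Hmgcs1* are shown because they hold the sterol element. That of *Insig1*, a sterol-controlled gene, is shown for its E-box, as its window held no exact match to TCACCCCA. Capitals mark TCACCCCA, CCAAT and CACGTG or their reverse complements, and each sequence is read 5′ to 3′ on the plus strand and ends where the GENCODE gene or the RefSeq transcript begins, whichever comes first. The distances above count from the RefSeq start, and the last base shown lies 89 bases before it in *Srebf2*, 1 base in *Hmgcs1* and 50 bases in *Insig1*.
Srebf2, chr15:82147019-82147180: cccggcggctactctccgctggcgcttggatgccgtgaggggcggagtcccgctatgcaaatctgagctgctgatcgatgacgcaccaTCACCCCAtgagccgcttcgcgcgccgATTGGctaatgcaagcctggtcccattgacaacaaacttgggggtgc
Hmgcs1, chr13:119690101-119690350: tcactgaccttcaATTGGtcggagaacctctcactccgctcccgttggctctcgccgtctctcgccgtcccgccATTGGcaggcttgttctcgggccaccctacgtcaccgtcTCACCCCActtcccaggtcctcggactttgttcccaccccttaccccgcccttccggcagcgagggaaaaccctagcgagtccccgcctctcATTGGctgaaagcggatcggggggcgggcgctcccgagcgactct
Insig1, chr5:28071162-28071362: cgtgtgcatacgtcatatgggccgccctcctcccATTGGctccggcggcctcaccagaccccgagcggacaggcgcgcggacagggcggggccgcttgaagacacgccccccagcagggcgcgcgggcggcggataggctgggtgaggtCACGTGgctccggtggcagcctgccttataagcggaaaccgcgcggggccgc

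The 12 libraries held between 9091152 and 12303527 counts, and 26191 genes had at least 1 count. The mean Pearson's r of a library with the others of its group was 0.9836 to 0.9921 over 9574 genes (genes are no independent replicates), and no library stood apart by this measure. The treatments showed in known target genes. The metallothionein gene *Mt1* was higher in zinc-PBS than in water-PBS by 3.87 ± 0.228 on the log2 scale (SE; DESeq2 adjusted p = 1.2e-60). *Mt1* is no marker of zinc alone, since it rose in water-Dex by 4.44 ± 0.228 (adjusted p = 1.6e-81), and between zinc-Dex and water-Dex it differed by 0.84 ± 0.223 (adjusted p = 0.0189), a call lost in 9 of 13 alternatives. *Fkbp5*, a glucocorticoid receptor target, was higher in water-Dex than in water-PBS by 3.12 ± 0.203 (DESeq2 adjusted p = 7.96e-51). All 6 hepatocyte markers were detected and 4 of 6 pancreas markers were at 0 in every library. The summed normalised counts of the hepatocyte markers lay between 1147000 and 1340000 in the PBS groups and between 1496000 and 1641000 in the Dex groups, and those of 5 lymphocyte markers between 237.8 and 270.3 and between 160.8 and 220.3. The sums of 4 red blood cell markers ran from 715.8 to 869.8 in zinc-PBS, against a range of 810.9 to 1399 for water-PBS, 1104 to 1916 for water-Dex and 1208 to 1380 for zinc-Dex. Of 5 endothelial markers, *Lyve1* rose in water-Dex by 2.53 ± 0.142 (DESeq2 adjusted p = 1.25e-68), *Kdr* fell by 1.14 ± 0.117 (adjusted p = 1.26e-20) and the other 3 did not pass. Their part in the results below was not tested. In whole liver, fewer cells of a type and less RNA per cell cannot be told apart.

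All 7 members were well expressed and passed every filter. Set on a common scale, as normalised read count per kilobase of exon, *Hmgcs1* had the highest level in water-PBS at 1779 ± 307 (SD, n = 3). *Insig1* followed at 1279 ± 196 and *Cyp51* at 802.6 ± 58.5, and the ranges of these 3 genes did not overlap. *Sqle* stood at 337.3 ± 34.1 and *Idi1* at 265.8 ± 42, with overlapping ranges. *Srebf2*, a regulator and not an enzyme, stood at 117.5 ± 11.7. *Fdps* was lowest at 48.2 ± 6.74. The *Fdps* level is uncertain, since reads that map to several places had been left out and the gene has near-identical pseudogenes. The closest, *Gm3571*, matched an *Fdps* transcript over 1062 bases at 98.87% identity and held 3564 counts over the 12 libraries, against 2776 for *Fdps* itself. Exons of *Fdps* are also shared with *Gm43738* on the same strand. *Idi1* has the pseudogene *Gm13502*, identical over 684 bases, and *Idi1*, *Hmgcs1* and *Cyp51* overlap exons of genes on the opposite strand.

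*Srebf2* (ENSMUSG00000022463, chr15:82147181-82205379 of mm10, plus strand) was higher in each treated group than in water-PBS. The water-PBS mice 1 to 3 had normalised read counts of 825.4, 770.8 and 935.7, and the zinc-PBS mice 1117, 979.1 and 1276. The water-Dex mice had 1188, 1097 and 1198, and the zinc-Dex mice 1310, 1394 and 1132. Every treated library lay above every control library, while the 3 treated groups overlapped each other. Of all genes tested, 5.86% had zinc-PBS wholly above water-PBS, 19.8% water-Dex and 14.9% zinc-Dex. *Srebf2* rose in water-Dex by 0.46 ± 0.121 on the log2 scale (SE; DESeq2 adjusted p = 0.00122) and in zinc-Dex by 0.60 ± 0.12 (adjusted p = 1.31e-05). Both held in 13 of 13 alternative analyses. In zinc-PBS the difference was 0.41 ± 0.12 and missed the threshold (adjusted p = 0.121, unadjusted p = 0.00058). It passed in 2 of 13 alternatives, without water-PBS replicate 3 (adjusted p = 0.0257) and without zinc-PBS replicate 2 (adjusted p = 0.0219). Over all single libraries left out, it lay between 0.314 and 0.505, with adjusted p up to 0.639.

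*Hmgcs1* (ENSMUSG00000093930, chr13:119690379-119708260, plus strand) encodes the cytosolic synthase that makes HMG-CoA at the entry of the mevalonate pathway. Normalised read counts were 7576, 7157 and 9780 for water-PBS and 10550, 8690 and 10630 for zinc-PBS. The water-Dex mice had 6825, 4702 and 5426, and the zinc-Dex mice 12390, 8519 and 7021. The 3 water-Dex libraries were the lowest of all 12, and zinc-Dex replicate 1 was the highest. Water-Dex lay wholly below water-PBS for 2729 of 14221 genes tested, and zinc-Dex wholly above water-Dex for 10.2% of genes tested. *Hmgcs1* fell in water-Dex against water-PBS by 0.53 ± 0.194 on the log2 scale (DESeq2 adjusted p = 0.0314). It was higher in zinc-Dex than in water-Dex by 0.72 ± 0.194 (adjusted p = 0.0222), a fold of 1.65, and between zinc-Dex and water-PBS the difference was 0.19 ± 0.193 (adjusted p = 0.712). Neither call was firm. The fall was lost with edgeR (adjusted p = 0.0529), without independent filtering (0.0573) and without water-PBS replicate 3 (0.199), water-Dex replicate 2 (0.191) or water-Dex replicate 3 (0.113). The difference between the Dex groups was lost with edgeR (adjusted p = 0.137), with only those 6 libraries in the fit (0.322) and without water-Dex replicate 2 (0.158), water-Dex replicate 3 (0.145) or zinc-Dex replicate 1 (0.327).

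*Idi1* (ENSMUSG00000058258, chr13:8885501-8892451, plus strand) encodes the isomerase of the 5-carbon isoprenoid units, and *Fdps* (ENSMUSG00000059743, chr3:89093588-89101959, minus strand) encodes the synthase that joins them into farnesyl diphosphate. Normalised read counts of *Idi1* were 901, 801.8 and 1092 for water-PBS, 1173, 929.2 and 1011 for zinc-PBS, 1115, 894.5 and 1044 for water-Dex and 1572, 1312 and 1053 for zinc-Dex. Replicates 1 and 2 of zinc-Dex lay above all other libraries, and replicate 3 lay within the control range. *Idi1* rose in zinc-Dex against water-PBS by 0.49 ± 0.159 on the log2 scale (DESeq2 adjusted p = 0.0156). The call was lost without water-PBS replicate 2 (adjusted p = 0.0921) or zinc-Dex replicate 1 (0.114).

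Normalised read counts of *Fdps* were 216.3, 170.2 and 221.8 for water-PBS, 258.2, 221.2 and 241.7 for zinc-PBS, 232.5, 168 and 173.1 for water-Dex and 413.8, 245.5 and 202.8 for zinc-Dex. All 4 groups overlapped, and zinc-Dex replicate 1 stood far above the rest. Its difference in zinc-Dex against water-PBS was 0.50 ± 0.228 (adjusted p = 0.137). When the counts of its processed pseudogenes with at least 95% identity over at least 600 bases were added, an alternative chosen after seeing the data, the difference was 0.70 and passed the test (DESeq2 adjusted p = 0.00392). It passed as well without zinc-Dex replicate 3 (adjusted p = 0.011). Over all single libraries left out, the difference lay between 0.148 and 0.706, with adjusted p up to 0.671.

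*Sqle* (ENSMUSG00000022351, chr15:59315077-59331192, plus strand) encodes squalene epoxidase, which oxidises squalene before the ring is closed, and was the member with the largest rise in zinc-Dex against water-PBS. Normalised read counts were 1860, 1687 and 2065 for water-PBS and 2370, 2162 and 2704 for zinc-PBS. The water-Dex mice had 2515, 2211 and 2575, and the zinc-Dex mice 3680, 2928 and 2791. The 3 zinc-Dex libraries were the highest of the 12 and the 3 water-PBS libraries the lowest. Among all genes tested, zinc-Dex lay wholly above water-PBS in 14.9%, above water-Dex in 10.2% and above zinc-PBS in 19.5%. *Sqle* rose in zinc-Dex against water-PBS by 0.74 ± 0.128 on the log2 scale, a fold of 1.68 (DESeq2 adjusted p = 1.54e-07), which held in 13 of 13 alternatives. It rose in water-Dex against water-PBS by 0.38 ± 0.128 (adjusted p = 0.0177) and was higher in zinc-Dex than in zinc-PBS by 0.38 ± 0.127 (adjusted p = 0.019). In zinc-PBS against water-PBS the difference was nearly as large as with Dex, at 0.37 ± 0.128, but missed the threshold (adjusted p = 0.343). The unadjusted p-values of *Sqle* in these 2 comparisons with water-PBS were also close, at 0.0041 for zinc-PBS and 0.003 for water-Dex. The rise in water-Dex was lost without water-PBS replicate 2 (adjusted p = 0.132), water-Dex replicate 1 (0.0825) or water-Dex replicate 3 (0.106). The difference between zinc-Dex and zinc-PBS was lost without zinc-PBS replicate 1 (adjusted p = 0.0654), zinc-PBS replicate 2 (0.135) or zinc-Dex replicate 1 (0.173).

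*Cyp51* (ENSMUSG00000001467, chr5:4081145-4104746, minus strand) encodes the lanosterol demethylase, a cytochrome P450 that acts after ring closure. Normalised read counts were 3823, 3313 and 3496 for water-PBS, 4558, 3807 and 4843 for zinc-PBS, 4445, 3775 and 3864 for water-Dex and 6592, 5066 and 4773 for zinc-Dex. Each zinc-Dex library was above each water-PBS and each water-Dex library, separations that 14.9% and 10.2% of all genes tested had. *Cyp51* rose in zinc-Dex against water-PBS by 0.63 ± 0.133 on the log2 scale (DESeq2 adjusted p = 4.13e-05), which held in 13 of 13 alternatives. Against water-Dex the difference was 0.44 ± 0.133 and narrowly missed the threshold (adjusted p = 0.0588). It passed with only the 6 libraries compared (adjusted p = 0.03) and without water-Dex replicate 1 (0.0498), zinc-Dex replicate 2 (0.0374) or zinc-Dex replicate 3 (0.024). Over all single libraries left out, its adjusted p reached 0.474. Against zinc-PBS the difference was 0.31 ± 0.132 (adjusted p = 0.0775), and it passed without zinc-PBS replicate 3 (0.0498) or zinc-Dex replicate 3 (0.027). Over all single libraries left out, the adjusted p of this difference reached 0.441.

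*Insig1* (ENSMUSG00000045294, chr5:28071363-28078662, plus strand) encodes the anchor that keeps SCAP and SREBP in the endoplasmic reticulum. Normalised read counts were 4300, 3259 and 4313 for water-PBS, 3420, 4152 and 3989 for zinc-PBS, 2704, 3465 and 3648 for water-Dex and 5226, 4055 and 3904 for zinc-Dex. The zinc-Dex libraries all lay above the water-Dex libraries, as in 10.2% of all genes tested, and every other pair of groups overlapped. No difference of *Insig1* passed the test. The closest to it was that between zinc-Dex and water-Dex, at 0.43 ± 0.153 on the log2 scale (DESeq2 adjusted p = 0.178, unadjusted p = 0.0053).

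**Figure D1:**
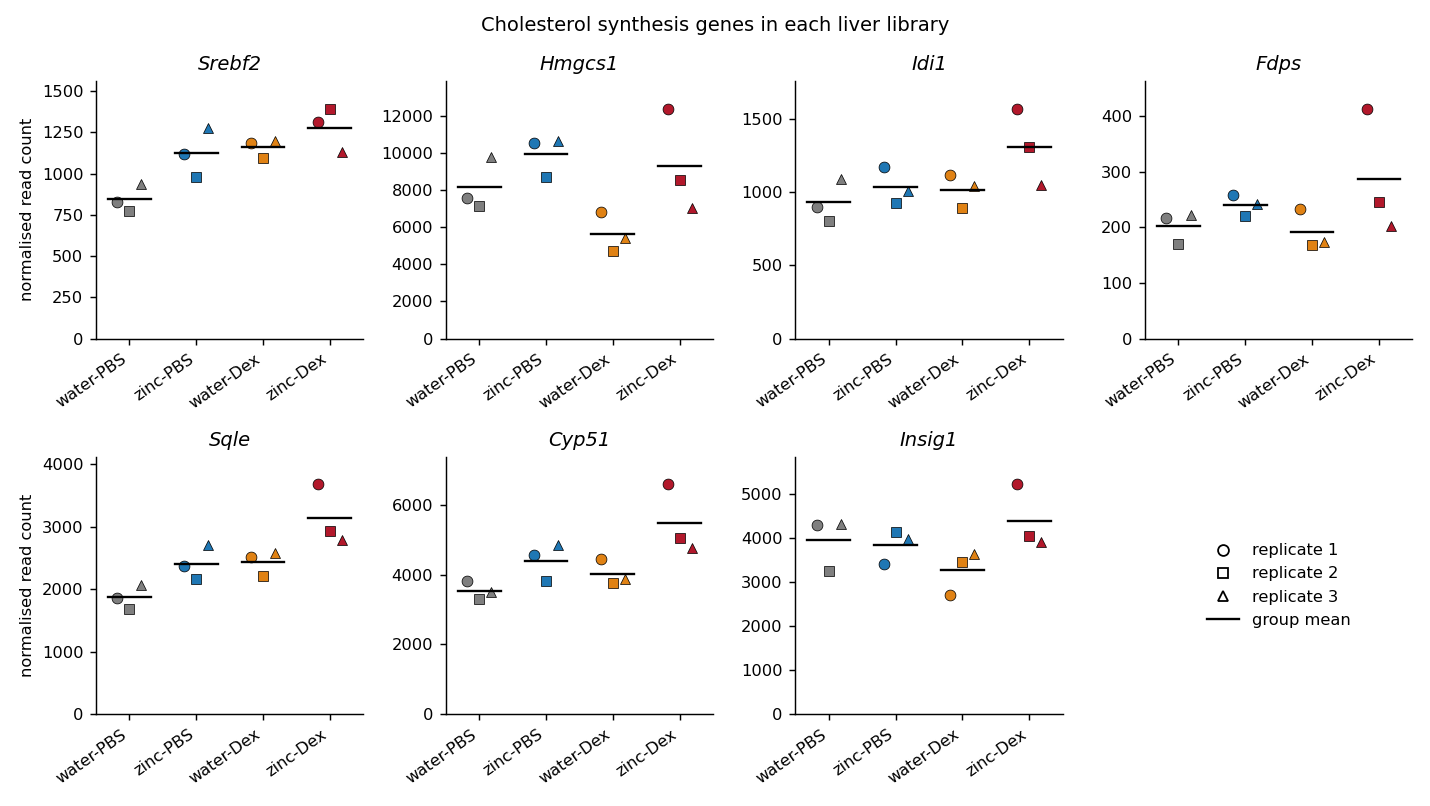
Normalised read counts of the 7 members in each of the 12 liver libraries, by group; marker shapes give the replicate and black lines the mean of 3 mice, and each vertical axis starts at 0. Circles in the zinc-Dex group mark replicate 1, which is the highest of its group for 6 of the 7 genes, all but *Srebf2*. Triangles in the water-PBS group mark replicate 3, which is likewise the highest of its group for 6 of the 7.

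Zinc alone was followed by small differences upwards that did not pass the test. Of the 7 members, 6 had a positive difference in zinc-PBS against water-PBS, between 0.16 and 0.41 on the log2 scale, and *Insig1* was at -0.04. The median was 0.285, against 0.002 over 9574 genes with a mean of at least 50 normalised counts. None passed an adjusted p under 0.05 (DESeq2; 0 with edgeR), while 3 had an unadjusted p under 0.05, namely *Srebf2*, *Sqle* (unadjusted p = 0.0041) and *Cyp51* (unadjusted p = 0.018). All 3 were higher in zinc-PBS, beside 3.77% of the 9574 genes with such a p and a positive difference. Over all genes tested, 0.341% passed the adjusted threshold in either direction. With the study's further requirement of an absolute log2 fold change above 0.8, 0 members and 0.138% of all genes were called.

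Dex alone moved single members in opposite directions. In water-Dex against water-PBS, *Srebf2* and *Sqle* rose, *Hmgcs1* fell and the other 4 did not pass the test, with differences between -0.27 for *Insig1* and 0.18 for *Cyp51*. The 2 of 7 that rose stand beside 11.7% of all genes tested and the 1 that fell beside 9.91%. Among the 9574 genes with a mean of at least 50 normalised counts, 15.5% rose and 11.1% fell. No member passed the fold threshold of 0.8, which 9.68% of all genes did. With edgeR, 2 members passed the adjusted p.

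Zinc and Dex together gave the highest count of members past the test among the comparisons. In zinc-Dex against water-PBS, all 7 differences were positive with a median of 0.503, against 0.028 over the 9574 genes, and *Srebf2*, *Sqle*, *Idi1* and *Cyp51* rose. These 4 of 7 stand beside 8.13% of all genes tested and 15.9% of the 9574 genes. EdgeR called 4 members too, and 3 passed without zinc-Dex replicate 1. None passed the fold threshold of 0.8, against 7.24% of all genes. Folds ranged from 1.11 for *Insig1* to 1.68 for *Sqle*.

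With Dex given to both groups, every member was higher on average with zinc. In zinc-Dex against water-Dex, all 7 differences were positive, from 0.14 for *Srebf2* to 0.72 for *Hmgcs1*, with a median of 0.426 against 0.002 over the 9574 genes. Of the 7, 6 had an unadjusted p under 0.05, against 7.14% of the 9574 genes with such a p and a positive difference. After adjustment over all genes only *Hmgcs1* passed, beside 0.915% of all genes tested in the same direction. EdgeR passed 0 members at the adjusted threshold, and so did the fit without zinc-Dex replicate 1, whereas 3 passed without zinc-Dex replicate 3. By the fold threshold 0 members were called, against 0.469% of all genes. In zinc-Dex against zinc-PBS, *Sqle* alone passed, beside 11% of all genes tested, 6 of 7 differences were positive with a median of 0.256, and the fold threshold called 0 members and 9.68% of all genes. This comparison and that against water-PBS share the zinc-Dex libraries.

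**Figure D2:**
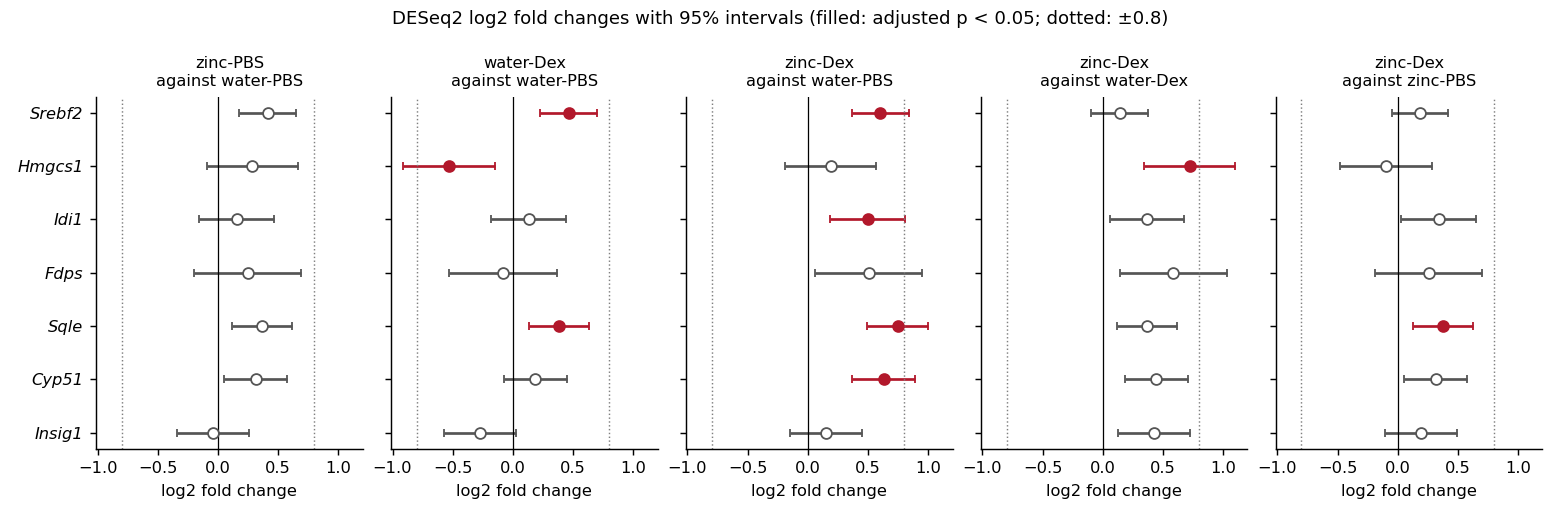
Log2 fold changes of the 7 members in 5 comparisons from DESeq2, with 95% confidence intervals; filled red points have an adjusted p under 0.05 and dotted lines mark the fold threshold of 0.8. In both comparisons of zinc-Dex with the groups that drank plain water, all 7 points lie to the right of 0, and no point lies beyond a dotted line.

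Whether zinc changed the response to Dex was tested as an interaction, the Dex difference in zinc-treated mice minus that in water-treated mice. No member passed the adjusted p (DESeq2, 0 of 7; 0 with edgeR), beside 0.0229% of all genes, and 0 members and 0.0191% of all genes passed with the fold threshold. The estimate was positive for *Hmgcs1* at 0.43 ± 0.274, with a 95% interval from -0.10 to 0.97, and for *Insig1* at 0.46 ± 0.216, the only member with an unadjusted p under 0.05 (0.032). For *Sqle* it was 0.00 with an interval from -0.36 to 0.35, and for *Srebf2* -0.28 with an interval from -0.61 to 0.06. These intervals do not tell an interaction of moderate size from none.

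The other enzymes of the pathway were counted in the same way. A list of 13 further sterol synthesis enzymes had no gene past the adjusted p in zinc-PBS against water-PBS (0 with edgeR). All 13 differences were positive, and 4 had an unadjusted p under 0.05. Beside them, 3.77% of the 9574 genes had such a p and a positive difference. In water-Dex, *Hsd17b7* rose, *Sc5d* fell and the other 11 did not pass, beside 11.7% of all genes tested that rose and 9.91% that fell. *Hsd17b7* was higher by 0.365 ± 0.118 on the log2 scale (DESeq2 adjusted p = 0.0133), and it no longer passed when either replicate 2 of water-PBS or replicate 3 of water-Dex was left out. In zinc-Dex against water-PBS, 9 of 13 rose and none fell, and 8 passed without zinc-Dex replicate 1. Beside them, 8.13% of all genes tested rose, and 15.9% of the 9574 genes. The fold threshold of 0.8 called 2 of 13 here, *Msmo1* and *Hsd17b7*, beside 7.24% of all genes, and 0 in the other comparisons. With 1 library left out, the difference of *Msmo1* went as low as 0.708 and that of *Hsd17b7* as low as 0.822. In zinc-Dex against water-Dex, all 13 differences were positive with a median of 0.522. The test was passed by 6 of 13, beside 0.915% of all genes tested and 1.15% of the 9574 genes that rose. That count was 1 with edgeR and 1 without zinc-Dex replicate 1. In zinc-Dex against zinc-PBS, 4 of 13 rose (2 with edgeR and 2 without zinc-Dex replicate 1). Beside them, 11% of all genes tested rose, and 15.5% of the 9574 genes.

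Between the Dex groups, *Lss* and *Pmvk* differed most among the enzymes of the list that passed. *Pmvk*, the phosphomevalonate kinase, was higher in zinc-Dex than in water-Dex by 0.69 ± 0.169 on the log2 scale (DESeq2 adjusted p = 0.00644; 0.0733 without zinc-Dex replicate 1). *Lss*, the cyclase that closes the sterol ring, was higher by 0.77 ± 0.199 (adjusted p = 0.0139; 0.215 without zinc-Dex replicate 1). Several of the late enzymes rose with both agents. *Msmo1*, the methyl sterol oxidase, rose in zinc-Dex against water-PBS by 0.92 ± 0.176 (adjusted p = 4.04e-06), and *Hsd17b7*, which reduces the 3-keto sterol, rose by 0.92 ± 0.118 (adjusted p = 3.41e-13). *Dhcr7*, which makes cholesterol from 7-dehydrocholesterol, rose by 0.75 ± 0.158 (adjusted p = 4.58e-05).

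*Sc5d*, the sterol C5-desaturase, fell in water-Dex against water-PBS by 0.59 ± 0.161 on the log2 scale (DESeq2 adjusted p = 0.00195). In zinc-Dex against water-PBS *Sc5d* was at -0.12 ± 0.161 (adjusted p = 0.823), and against water-Dex at 0.48 ± 0.161 (adjusted p = 0.136).

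**Figure D3:**
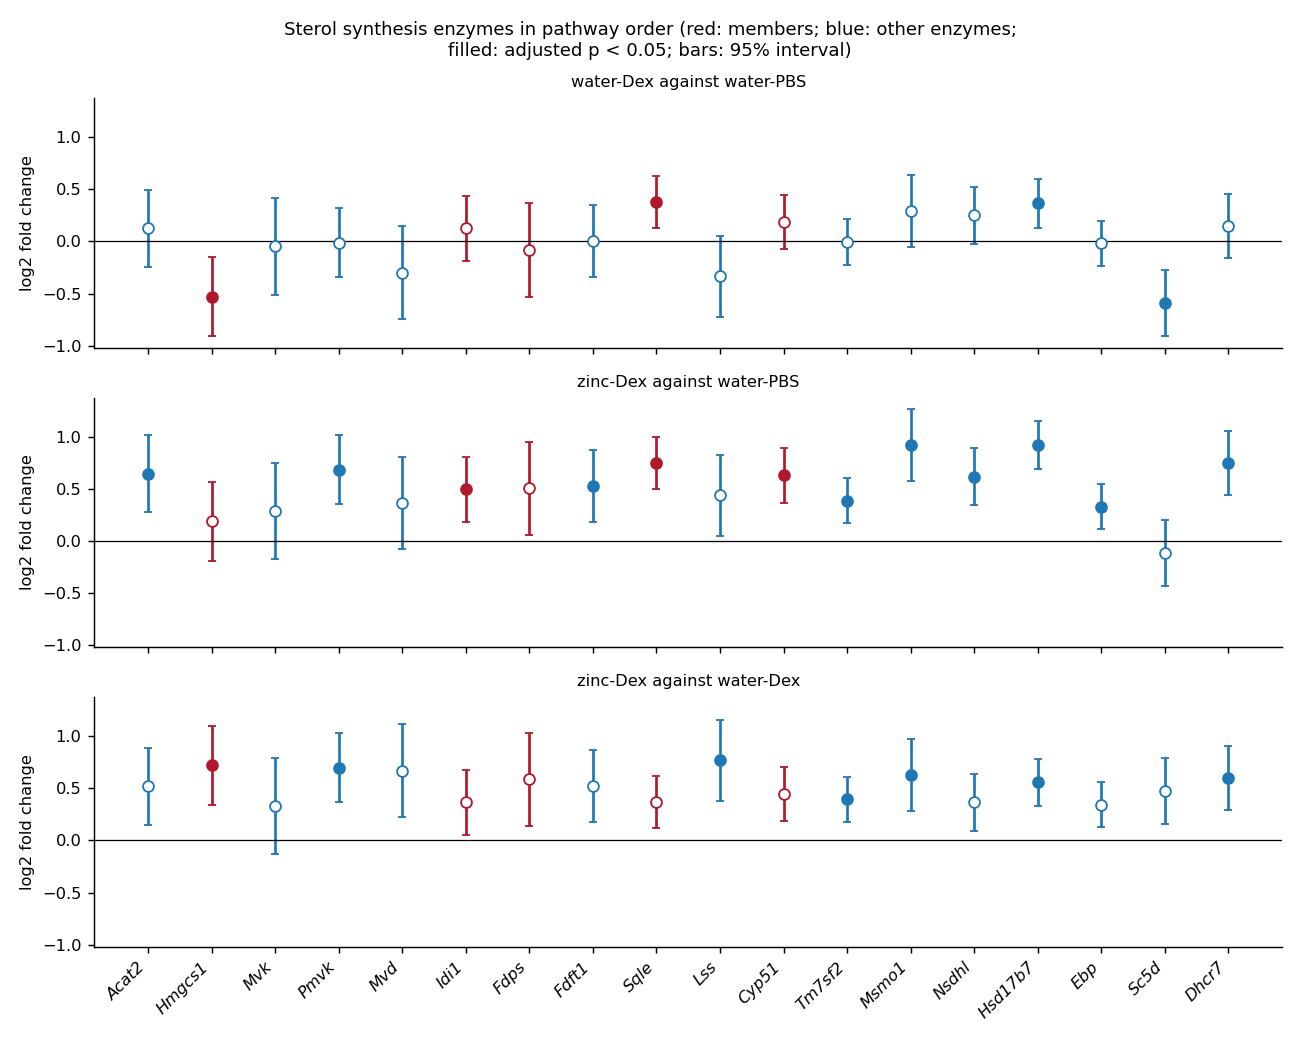
Log2 fold changes of 18 sterol synthesis enzymes in pathway order, with 95% intervals, in 3 comparisons; members are red, other enzymes blue, and filled points have an adjusted p under 0.05. With Dex alone, *Sqle* and *Hsd17b7* are filled above 0, *Hmgcs1* and *Sc5d* are filled below 0 and the other points are open, and in zinc-Dex against water-Dex all 18 points are above 0.

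Among the genes that process SREBP, *Insig2* and *Srebf1* had large changes with Dex. *Insig2*, the second INSIG anchor, had 2434 to 3468 normalised counts in water-PBS, 1969 to 2075 in zinc-PBS, 10990 to 12760 in water-Dex and 8966 to 14890 in zinc-Dex. It rose 4.01-fold in water-Dex (log2 2.00 ± 0.171, DESeq2 adjusted p = 1.19e-29) and 4.22-fold in zinc-Dex against water-PBS (adjusted p = 8.35e-32). *Srebf1*, which encodes SREBP1, the factor for fatty acid synthesis, fell in water-Dex by 1.83 ± 0.165 on the log2 scale (adjusted p = 9.82e-27) and in zinc-Dex by 1.91 ± 0.165 (adjusted p = 6.66e-29). Their paralogues among the members differed in water-Dex by -0.27 (*Insig1*) and 0.46 (*Srebf2*) on that scale. Of the 8 genes of SREBP processing, 1 rose and 1 fell in water-Dex, shares near those of all genes tested (11.7% and 9.91%), and 0 passed in zinc-Dex against water-Dex (1 at an unadjusted p under 0.05).

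**Figure D4:**
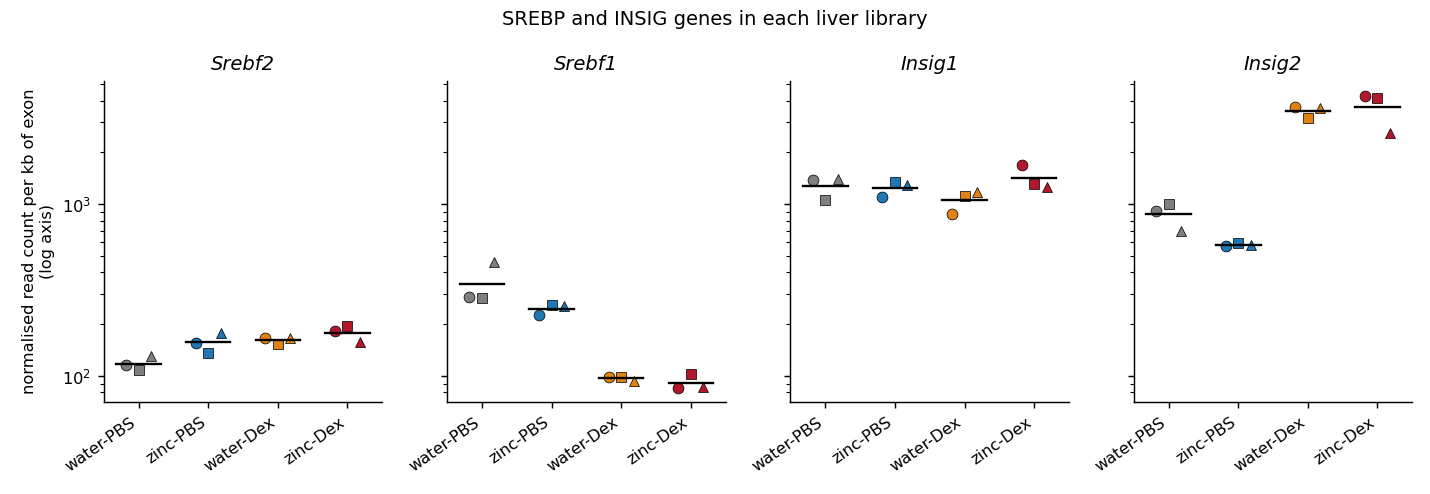
Normalised read count per kilobase of exon, on a log axis, of *Srebf2*, *Srebf1*, *Insig1* and *Insig2* in each library; shapes mark replicates 1 (circle), 2 (square) and 3 (triangle) and lines the group mean. The 6 Dex libraries are apart from the 6 PBS libraries for *Srebf1* (lower) and *Insig2* (higher), and overlap them for *Srebf2* and *Insig1*.

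Genes of sterol uptake, transport and export were read in the same comparisons. Of 9 genes for uptake and trafficking, 1 rose and 3 fell in water-Dex against water-PBS, beside 11.7% and 9.91% of all genes tested. *Scarb1*, the HDL receptor, rose by 0.62 ± 0.0965 on the log2 scale (DESeq2 adjusted p = 2.47e-09), and *Stard4*, a cytosolic sterol carrier, fell by 0.53 ± 0.103 (adjusted p = 3.74e-06). In zinc-Dex against water-Dex, 2 rose and 0 fell, beside 0.915% of all genes tested that rose. *Npc1*, which moves cholesterol out of lysosomes, was higher by 0.66 ± 0.146 (adjusted p = 0.00215), though not with edgeR, and *Stard4* by 0.35 ± 0.103 (adjusted p = 0.048), which was lost in 8 of 13 alternatives. Of 8 LXR and efflux genes, *Abcg5* and *Abcg8*, the pair that exports sterols into bile, were higher in zinc-Dex than in water-Dex by 0.62 ± 0.144 (adjusted p = 0.00338) and 0.75 ± 0.175 (adjusted p = 0.00458). Both lost the call with edgeR and without water-Dex replicate 1, *Abcg8* also without zinc-Dex replicate 1 (adjusted p up to 0.0713) and *Abcg5* without zinc-Dex replicate 3 (up to 0.0582). The 2 genes overlap by 82 exon bases on opposite strands. *Abcg1*, a sterol exporter of the same list, fell in zinc-Dex against water-PBS by 1.11 ± 0.26 (adjusted p = 0.000283), which held in 13 of 13 alternatives and was past the fold threshold. Its fall in water-Dex by 0.65 ± 0.251 (adjusted p = 0.0443) was lost in 8 of 13.

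Within zinc-Dex the mice differed. The mean log2 difference of the 7 members from their water-PBS means was 0.764 in replicate 1, 0.401 in replicate 2 and 0.204 in replicate 3. In water-Dex it lay between -0.078 and 0.136, in zinc-PBS between 0.124 and 0.343 and in water-PBS between -0.179 and 0.153. So the 3 zinc-Dex libraries lay above the 3 water-Dex libraries, and replicate 3 lay within the range of zinc-PBS. Replicate 1 was the highest of its group for 6 of 7 members, 13 of 13 other sterol enzymes and 10 of 11 fatty acid synthesis genes. The share over the 9574 genes was 36.5%. The mean of the 11 fatty acid synthesis genes was 0.91 in that library, against 0.102 and 0.294 in the other 2. Across all genes it did not stand apart, with a mean r of 0.9893 with its group. Other libraries had high counts of this kind in some of the lists. In water-PBS, replicate 3 was the highest of its group for 6 of 7 members and 10 of 13 other sterol enzymes. For fatty acid synthesis it was so in 6 of 11 genes, beside 35.5% of the 9574 genes. Replicate 1 of zinc-PBS and replicate 3 of water-Dex were each the highest for 10 of 11 fatty acid synthesis genes, beside 33.4% and 32.3%. These 2 libraries were the highest for 2 and 3 of 7 members, and for 7 and 2 of 13 other sterol enzymes.

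**Figure D5:**
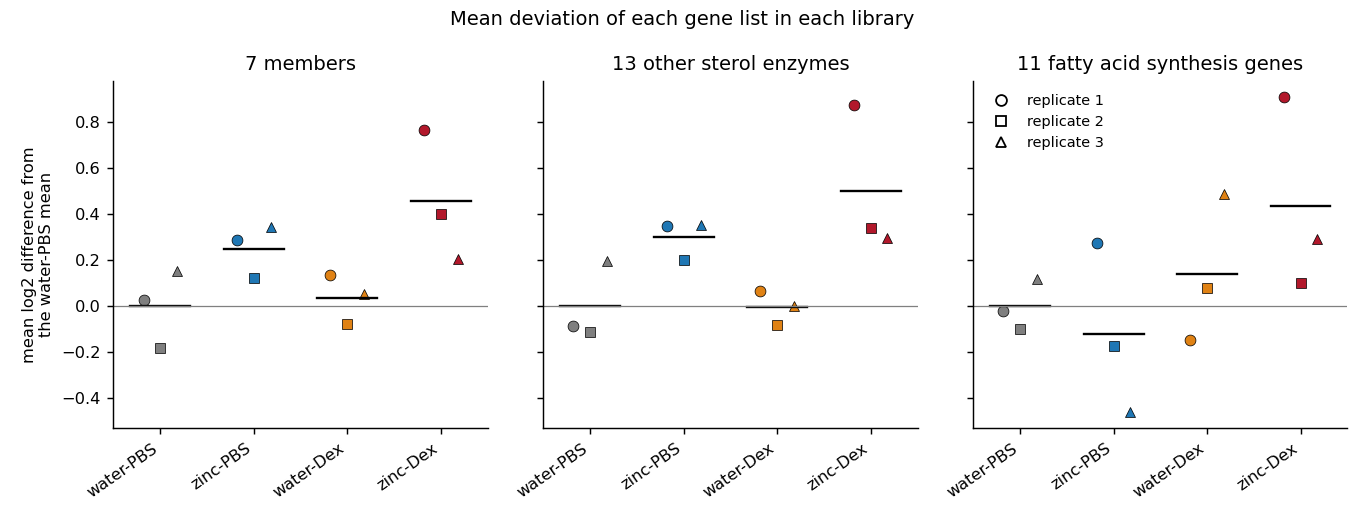
Mean log2 difference from the water-PBS mean over the 7 members, 13 other sterol enzymes and 11 fatty acid synthesis genes in each library; shapes mark the replicate and lines the group mean. Replicate 1 of zinc-Dex is the highest library in all 3 panels, at 0.764, 0.873 and 0.91.

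Members varied together between mice of the same group. Over the 21 pairs of members, Pearson's r of log2 normalised counts across the 12 libraries had a median of 0.567. After each group's mean was taken off, the median was 0.705, with a range from 0.223 to 0.927, and 14 pairs were above 0.5. *Hmgcs1* with *Idi1* (0.927) and with *Fdps* (0.925) were the closest pairs within groups, and *Insig1* with *Srebf2* (0.223) the loosest. Across all libraries *Sqle* went most closely with *Cyp51* (0.924) and *Srebf2* (0.91). The zinc-Dex mice were spread widely, with replicate 1 high. Their log2 differences from the water-PBS mean were 1.035, 0.284 and 0.01 for *Fdps* and 0.614, 0.074 and -0.205 for *Hmgcs1*. How far the correlations rest on that library was not measured. The points share libraries and size factors, and pairs of other genes were not measured for comparison, so these values are descriptions.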

How the data were processed

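Single-end reads of stranded TruSeq libraries from 12 livers had been mapped by the authors to mm10 with hisat (HISAT2 2.0.4 in the submitters' notes), and the authors made the deposited raw counts per gene with featureCounts, without multimapping reads. The annotation release and strand setting are not given in the sources used here, so levels of overlapping genes are uncertain. Symbols and exon lengths came from GENCODE M21.

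Differential expression was tested with DESeq2 1.42.0 under R 4.3.3 and Wald tests, the tool and test of the study's methods. All 12 libraries were fitted at once with a coefficient per group, a choice made here, with unshrunken log2 fold changes and Benjamini-Hochberg adjustment over all genes tested. Adjusted p under 0.05 was the test, and the study's call also asked for an absolute log2 fold change above 0.8. Normalised counts are counts divided by DESeq2 size factors, and intervals cover 95%. Mice of a group are the replicates. Alternatives were edgeR 4.0.16 (quasi-likelihood, TMM), TMM factors, a minimum of 10 counts in 3 libraries, a replicate term, leaving out each library, only the libraries compared, and no independent or Cook's filter. DESeq2 and edgeR were tested on simulated counts.

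Members and lists were chosen with earlier results of these data known. All members are named, and of each other list up to 4 genes with the largest absolute log2 fold change among those past the adjusted p. Likeness to the members used Pearson's r of log2(normalised count + 1) over genes with a mean of at least 50. Results of 2 further genes of these lists are not reported here.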

Additional observations from a re-analysis of the deposited data

How the results depend on the processing

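Calls of *Srebf2* in water-Dex and of *Srebf2*, *Sqle* and *Cyp51* in zinc-Dex against water-PBS held in 13 of 13 alternatives each. With no fold threshold, the members called were 3 in water-Dex, 4 in zinc-Dex against water-PBS, 1 in zinc-Dex against water-Dex and 1 in zinc-Dex against zinc-PBS, in place of 0. Leaving out 1 library at a time, 0 to 1 members passed that threshold in zinc-Dex against water-PBS and 0 to 1 in zinc-Dex against water-Dex. At the adjusted p alone, the members passing were 0 to 1 in zinc-PBS, 1 to 3 in water-Dex, 3 to 5 in zinc-Dex against water-PBS, 0 to 3 in zinc-Dex against water-Dex and 0 to 3 in zinc-Dex against zinc-PBS. EdgeR gave 0 in zinc-Dex against water-Dex in place of 1. The cause was not tested.

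Same-numbered libraries deviated together little: of 18 pairs of them, 1 had a correlation of deviations over 0.1 (range -0.204 to 0.191). The labels do not say what the replicate numbers mark, so these values cannot show whether the mice were paired. With the replicate block, 2 members passed in place of 1 in zinc-Dex against water-Dex and 2 in place of 1 in zinc-Dex against zinc-PBS, *Cyp51* being added in both (adjusted p = 0.0142 and 0.0361). Whether the block matches any pairing of the animals is not known.

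Signs turned only for differences far from the threshold. Leaving out 1 library, the log2 fold change lay between -0.16 and 0.041 for *Insig1* in zinc-PBS, between -0.246 and 0.002 for *Fdps* in water-Dex, between -0.07 and 0.358 for *Hmgcs1* in zinc-Dex against water-PBS, between -0.357 and 0.071 for *Hmgcs1* and -0.102 and 0.457 for *Fdps* in zinc-Dex against zinc-PBS, and for the interaction between -0.136 and 0.087 (*Sqle*), -0.023 and 0.538 (*Fdps*) and -0.026 and 0.22 (*Cyp51*). The *Sqle* interaction was 0.001 with the count filter, and *Fdps* in water-Dex was 0.09 with pseudogene counts added. Over all genes, calls in zinc-Dex against water-Dex went from 60 to 21 with edgeR and from 26 to 101 over libraries left out.

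Each group held 3 mice, with total counts of 9091152 to 12303527 per library, and the smallest difference that this design can detect was not measured.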

Other observations

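Genes outside the lists whose level followed the mean of the 7 members most closely over the 12 libraries were *Atp6v0a1* (r = 0.92), *Plin3* (0.915), *Taf1* (0.912), *Gm3571* (0.911), *Rdh11* (0.889), *Cyp8b1* (0.872), *Sccpdh* (0.872) and *Erg28* (0.87), out of 9574 genes. These were the highest of many values, so they are descriptions. *Plin3* encodes a lipid droplet protein, *Cyp8b1* the sterol 12-alpha-hydroxylase of bile acid synthesis and *Erg28* a scaffold of sterol enzymes, while *Gm3571* is the pseudogene that resembles *Fdps*. All 8 were found again with a pseudocount of 10, and 7 of 8 with a mean of at least 200.

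Among 11 fatty acid synthesis genes, Dex raised *Thrsp*, a lipogenic regulator, by 2.27 ± 0.346 on the log2 scale in water-Dex (DESeq2 adjusted p = 1.4e-09). *Pnpla3* rose as well by 1.29 ± 0.477 (adjusted p = 0.0339), *Mlxipl* fell by 0.38 ± 0.129 (adjusted p = 0.0205), and the other 8 did not pass the test. The 2 of 11 that rose stand beside 11.7% of all genes tested, and the 1 that fell beside 9.91%. The *Pnpla3* call was lost in 10 of 13 alternatives, edgeR among them, its groups overlapped, and leaving out 1 library gave values from 0.688 to 1.624. The *Mlxipl* call was lost in 3 of 13, without water-PBS replicate 3, water-Dex replicate 1 or water-Dex replicate 2. *Acacb*, the acetyl-CoA carboxylase of mitochondria, was the only 1 of the 11 that passed in zinc-Dex against water-Dex, beside 0.915% of all genes tested that rose. It was higher by 0.82 ± 0.178 (adjusted p = 0.0014), though it did not pass with edgeR.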
